A study of Mus musculus with 4 samples.

Results

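METTL3 regions inside annotated genes are stretches of the mouse genome where chromatin immunoprecipitation with sequencing (ChIP-seq) for METTL3 gave a listed peak and where the middle of that stretch lies between the start and end of a RefSeq gene. Peaks from both immunoprecipitated (IP) libraries on chromosomes 1 to 19 and X were pooled, and peaks overlapping by at least 1 bp were joined into one region. Of 434 regions, 218 lay inside a gene (50.2%, exact 95% interval 45.4 to 55.0%) and 216 lay between genes. The part of these chromosomes inside gene spans is not given here, so the share is not set against a background. From the listed regions the 218 were taken by position, and repetition between libraries was not a condition. Height did enter earlier, since each region had passed the peak caller's thresholds in at least 1 library.

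The series asked which DNA sites METTL3 occupies in mouse embryonic stem cells, which are pluripotent cells grown from the early embryo. Its 4 libraries came from wild-type C57BL/6 cells, 2 precipitated with a rabbit METTL3 antibody and 2 inputs of sonicated chromatin with no antibody. All 4 shared the same culture, in DMEM with fetal bovine serum, LIF at 1000 U/ml, the GSK3 inhibitor CHIR99021 at 3 μM and the MEK inhibitor PD0325901 at 1 μM, and the same fixation with 1% formaldehyde. The IP libraries held 22246555 and 21793898 tags, and the inputs about 24800000 and 14900000. No METTL3-depleted cells and no control antibody were analysed here. The labels do not tie the replicates to separate cultures, so their spread may be technical. Intervals cover counting error only. ChIP-seq does not measure expression, so the labelled cell type could not be checked against marker levels.

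METTL3 is the catalytic subunit of the enzyme complex that writes N6-methyladenosine (m6A) on RNA, and METTL14 is its partner, which helps to bind the RNA. The complex works in the nucleus, largely on RNA that is still being made, so it can be fixed to chromatin through nascent transcripts or through proteins bound to DNA. A RefSeq gene span includes introns, which make up most of the length of long mammalian genes. Exons and introns were not told apart here.

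Start-window sequences are shown because METTL3 regions overlapped windows around listed starts of their own host genes there. Each listed start in the RefSeq table (GRCm38.p6) comes with a window of 250 bases before it and 50 after. Inside genes, regions overlapped such windows at 1700019D03Rik, an uncharacterised protein-coding gene, and at Cntnap2, which encodes a neurexin-family adhesion protein. Capitals mark the bases that the METTL3 region covered, and all sequences run 5′ to 3′ on the strand of the gene. The region at 1700019D03Rik (chr1:52953350-52953626) was in both lists and covered 62 bases of one window (chr1:52953565-52953864, minus strand) and 251 bases of another (chr1:52953301-52953600, minus strand). The region at Cntnap2 (chr6:47244027-47244197) was in the list of replicate 1 only and covered 52 bases of its window (chr6:47244146-47244445, plus strand).
1700019D03Rik, first window: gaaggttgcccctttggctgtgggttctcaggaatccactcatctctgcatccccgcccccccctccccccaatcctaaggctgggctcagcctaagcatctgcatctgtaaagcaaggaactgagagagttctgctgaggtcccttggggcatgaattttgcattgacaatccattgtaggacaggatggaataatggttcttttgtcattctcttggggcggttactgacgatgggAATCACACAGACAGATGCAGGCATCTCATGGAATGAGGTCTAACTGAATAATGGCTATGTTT
1700019D03Rik, second window: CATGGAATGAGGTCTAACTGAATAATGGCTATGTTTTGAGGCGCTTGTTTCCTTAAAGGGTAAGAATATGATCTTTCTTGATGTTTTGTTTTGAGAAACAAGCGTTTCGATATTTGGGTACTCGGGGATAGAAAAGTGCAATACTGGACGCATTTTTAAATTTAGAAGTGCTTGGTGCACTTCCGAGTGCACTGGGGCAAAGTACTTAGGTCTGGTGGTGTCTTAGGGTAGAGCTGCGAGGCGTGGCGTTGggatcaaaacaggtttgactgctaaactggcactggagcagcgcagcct
Cntnap2: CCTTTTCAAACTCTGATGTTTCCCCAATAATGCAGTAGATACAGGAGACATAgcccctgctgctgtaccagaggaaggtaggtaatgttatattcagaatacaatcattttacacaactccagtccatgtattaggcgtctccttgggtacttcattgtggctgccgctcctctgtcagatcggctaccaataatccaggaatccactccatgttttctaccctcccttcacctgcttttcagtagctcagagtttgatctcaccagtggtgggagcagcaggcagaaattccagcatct
Both starts were internal to long gene spans. The 1700019D03Rik region lay 39.2 kb from the outer start of a 70.3 kb gene, and the Cntnap2 region lay 2184 kb into a 2241 kb gene. At 1700019D03Rik the height was 10.8 normalised tags in replicate 1 and 7.80 in replicate 2, against input of 0.806 and 0.673. At Cntnap2 it was 5.84 against 1.61 in input, from 13 IP tags and 4 input tags.

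The tallest regions inside genes were ranked by the lower of both heights, among regions in both lists. Their heights were alike in both IP libraries, and that ranking itself favours like heights. A height is the number of IP tags in the peak if the library had 10000000 tags (normalised tags), and input is given on the same scale. The first was in 6030442K20Rik, a long non-coding RNA (lncRNA) gene of 10.4 kb (chr1:132471153-132471323), with 42.3 in replicate 1 and 40.8 in replicate 2. Input there was 0.403 and 4.04, so the first library stood 105 times above its input (exact 95% interval 18.4 to 4184, from 1 input tag) and the second 10.1 times (4.47 to 28.3). The region in Tet2, which encodes an enzyme that oxidises 5-methylcytosine, measured 33.7 and 48.6 against input of 2.02 and 3.36, and it lay 20.2 kb from the start of the 81.5 kb gene. Tet2 was thus among the highest in both libraries while its replicates differed more than those of 6030442K20Rik, with 41.2 ± 10.5 against 41.5 ± 1.06 (SD, n = 2).

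Further regions above 30 in both libraries lay in Fam174a, Epb41l4a, Fryl and Thada. Fam174a (chr1:95326925-95327143) measured 36.0 and 33.5 against input of 0.806 and 1.35, at 61.9% of the gene length from its start. Epb41l4a, a gene of the band 4.1 family of membrane-cytoskeleton linkers (chr18:33836030-33836220), measured 36.9 and 33.0 against 2.42 and 3.36. Fryl, related to the fly cell-shape gene furry (chr5:73219816-73219988), measured 32.4 and 38.5 against 2.42 and 0. In replicate 2 Fryl had 84 IP tags while input had none. Counting that input as 3 tags gives 19.1-fold. From the observed counts, with no input tag, the exact 95% interval starts at 15.2. The taller of 2 regions in Thada (chr17:84355131-84355309) measured 40.5 and 32.1 against 0.806 and 3.36. At all of these regions both IP values lay above both input values.

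The next regions lay between about 15 and 29. Ak3, a mitochondrial adenylate kinase gene, and Cdc37l1, a gene related to the co-chaperone Cdc37, overlap on opposite strands and shared a region of 28.8 and 23.4 (chr19:29008119-29008330). Esrrb encodes a nuclear receptor that helps to maintain pluripotency, and its region had 20.7 and 25.2, at 87.7% of the gene length. Tead1, whose product is a DNA-binding partner of YAP in Hippo signalling, had 20.2 and 20.6. Sptlc2 encodes a subunit of serine palmitoyltransferase, the first enzyme of sphingolipid synthesis, and had 18.9 and 23.9. The lncRNA gene Gm32130 had 19.8 and 21.1, and Specc1, a cytospin gene, had 18.9 and 17.9. A region in Schip1 and the longer read-through gene Iqschfp had 18.0 and 17.0, and one in LOC115486128 and Gm14230 had 18.4 and 15.1. Fat1, an atypical cadherin gene, had 15.3 and 15.6, with an SD of 0.212 about a mean of 15.4 (n = 2).

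The rest of the first 25 by the lower of both heights were 10 regions with values from 11.9 to 17.4. Plekhb2 had 13.5 and 15.1, Wdr7 13.5 and 17.4, and Glt1d1 13.5 and 13.8. Tenm3, a teneurin gene, had 15.3 and 13.3, and Asic2, an acid-sensing ion channel gene, had 15.7 and 12.8. Arid5b, a gene for an ARID-domain DNA-binding protein, had 14.8 and 12.4, and the tallest region of Mettl14 by that rule had 13.5 and 12.4. Myo1f, an unconventional myosin gene, had 12.1 and 12.8 but also the highest input of this group, 3.22 and 2.69, with folds of 3.76 (95% interval 1.66 to 9.59) and 4.77 (1.67 to 18.7). Gm30847 had 15.7 and 11.9. The lower region of the pair in Thada had 15.7 and 14.7.

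Over the 93 genic regions listed in both libraries, heights ran from 5.84 to 42.3 in replicate 1 (median 9.89) and from 5.96 to 48.6 in replicate 2 (median 9.64). Input at the same regions had medians of 1.21 and 0.673. In 93 of the 93, the lower IP height was above the higher input height, and calling peaks against input itself favours that order. The heights of 85 of the 93 (91.4%) were within 1.5 times of each other, and the SD of the log2 ratio was 0.37. Regions between genes were alike, with median heights of 10.3 and 10.6 for those in both lists. Over all 195 regions in both lists, 175 (89.7%) were within 1.5 times, with an SD of 0.355. The order of IP above input held in all 195. At the 93 genic regions, the centres of the paired calls lay a median of 23 bp apart (0 to 140.0 bp), and 78 pairs were at most 50 bp apart. Only regions called in both libraries enter these values, and calls were paired only if they overlapped. The first condition favours like heights and the second favours near centres.

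**Figure D1:**
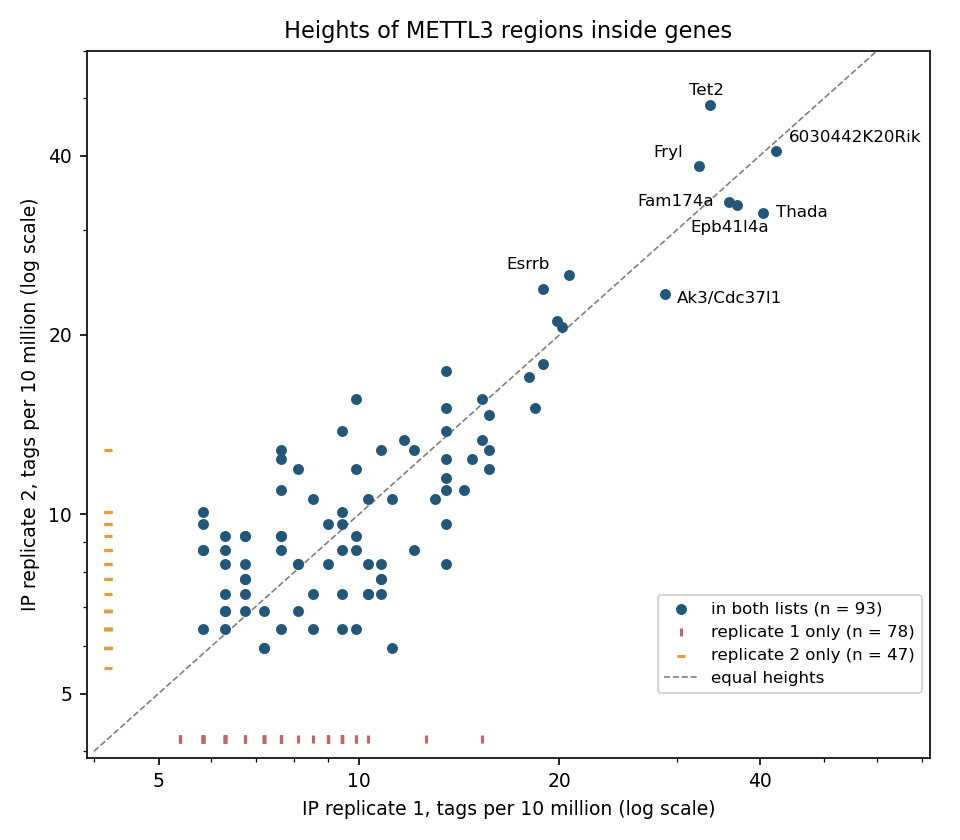
Height of each METTL3 region inside a gene, IP replicate 1 on the x axis against IP replicate 2 on the y axis, both in normalised tags on a log scale; circles are the 93 regions in both lists, ticks along the axes are the 78 and 47 regions listed in 1 replicate, and the dashed line marks equal heights. The labelled tall regions sit near the line, and every region of 1 list alone is at or below 15.3.

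Of the 218 genic regions, 93 were in both lists (42.7%, exact 95% interval 36.0 to 49.5%), against 44.9% of all 434 regions. Between genes the share was 102 of 216 (47.2%, 40.4 to 54.1%), and the intervals overlap. Regions with a caller's fold over input of at least 8 in both lists made up 45 of 218 (20.6%) inside genes and 19.8% of all regions. Counted from a single list, 93 of 171 genic regions of replicate 1 (54.4%) and 93 of 140 of replicate 2 (66.4%) recurred in the other. Summed over the 93, replicate 1 held 2555 IP and 265 input tags, a ratio of 10.8 after scaling (exact 95% interval 9.47 to 12.2). Replicate 2 held 2504 and 150, a ratio of 11.4 (9.65 to 13.5). Over regions of 1 list alone the ratios of the sums were 6.32 (5.48 to 7.33) and 9.31 (7.08 to 12.5). These folds describe regions that were called because IP exceeded input.

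Recurrence went with the number of tags. Of genic regions with 12 to 15 IP tags, 19 of 63 in replicate 1 (30.2%) and 14 of 45 in replicate 2 (31.1%) were in the other list. With 16 to 20 tags the shares were 47.5% and 76.2%, and with 21 to 30 tags they were 73.3% and 82.4%. With 31 or more tags, 22 of 23 (95.7%) and 19 of 19 recurred. The exception in replicate 1 was a region of 34 tags in the lncRNA gene Gm32673 (chr6:125433633-125433803). Regions between genes showed a like course, from 22.4% and 32.4% in the lowest class to 30 of 30 and 24 of 24 in the highest.

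**Figure D2:**
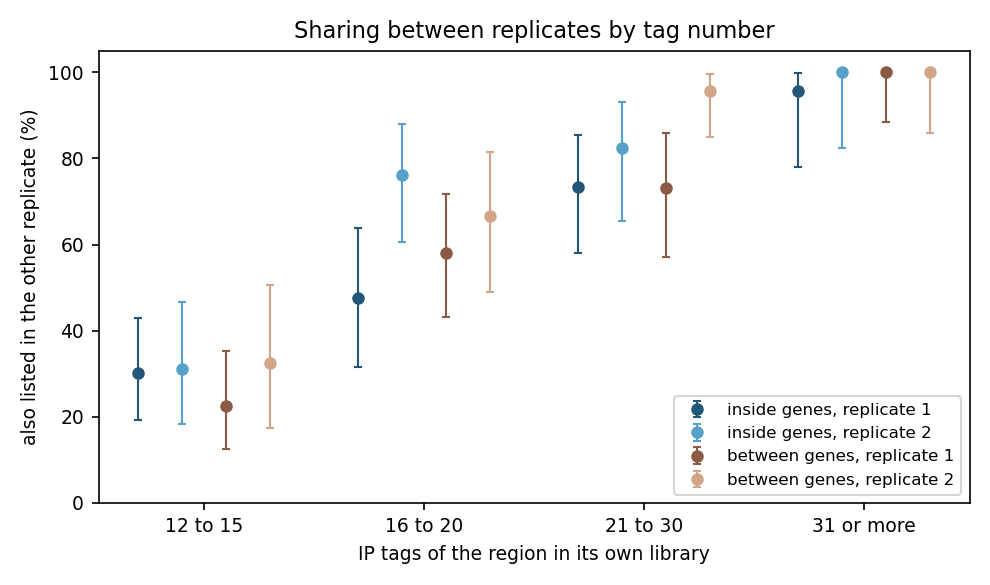
Share of regions also listed in the other replicate (y axis, %) by the number of IP tags in the region's own library (x axis), for regions inside and between genes; points are shares and bars are exact 95% binomial intervals. Shares inside genes go from 30.2% and 31.1% at 12 to 15 tags to 95.7% and 100% at 31 or more, and intervals inside and between genes overlap in every class.

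Regions inside genes lay along the whole gene. A strand was known for the longest host of 159 of the 218, and along these the median position was 50.9% of the gene length from its start (quartiles 24.4 and 77.1%). The 5 equal parts of the gene held 34, 29, 33, 29 and 34 regions from start to end. Among the 73 of these in both lists the median was 55.7%, and the parts held 14, 8, 17, 16 and 18. The second part held 10 regions of replicate 2 alone, and the last part held 3. In absolute distance the regions lay a median of 25.8 kb from the gene start, from 0.097 to 2239 kb.

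**Figure D3:**
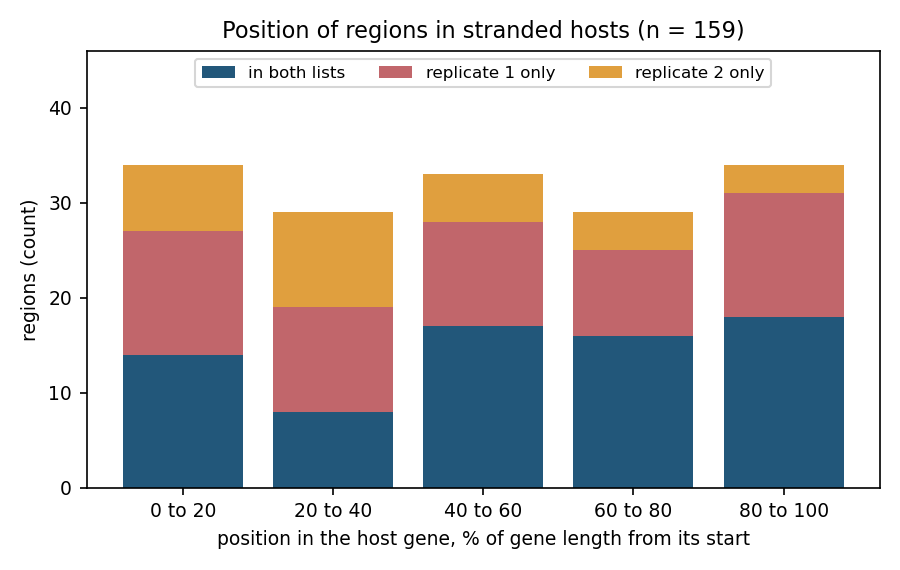
Number of regions (y axis) in each of 5 equal parts of the host gene from its start to its end (x axis, % of gene length), for the 159 regions whose longest host has a known strand; colours show regions in both lists, in replicate 1 only and in replicate 2 only. The parts hold 29 to 34 regions each.

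Most regions lay over 1 kb from both ends of their gene. With the longest host, 203 of 218 (93.1%, exact 95% interval 88.9 to 96.1%) did, and so did 90 of the 93 regions in both lists. The median host length was 81.8 kb. The part of host length within 1 kb of an end was not computed, so these shares are not set against a background. Counting every overlapping host, 4 pairs of a gene and a region in both lists lay within 1 kb of a gene end. Ifitm2, an interferon-induced transmembrane protein gene, had a region of 13 and 10.6 at 0.097 kb from its outer start. The listed start of Ifitm2 with a sequence window lay 3.63 kb from it. In the lncRNA gene Gm14230 the region lay 0.618 kb from the start. In Hspa4, a gene of the Hsp110 chaperone family, a region of 6.74 and 8.26 lay 0.967 kb from the end of the gene. Plekhf2, an endosomal PH and FYVE domain protein gene, had one of 6.29 and 6.88 at 0.989 kb from an end.

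Regions of 1 list alone gave 13 such pairs. By height the first were Gm42346, with 10.1 normalised tags in replicate 2, a pair in AW549542 with 9.64 in replicate 2 and 9.44 in replicate 1, Gm34099 with 9.44 and Gm40278 with 7.19. The AW549542 regions were 73 bp apart, so each list had a peak there that the 1 bp rule kept separate. No other genic region of 1 list had a peak of the other list within 1 kb. The smallest host was the transfer RNA gene n-TYgta7 (0.088 kb), with 14 IP tags and no input tag in replicate 2 alone, whose region is wider than the gene itself. That region's midpoint was 4 bp inside the gene, and the next nearest was that in Ifitm2. Just outside, midpoints were 76 bp from Lamp1 (8.99 in replicate 1) and 122 bp from Fbxo27 (8.99 and 6.88).

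Host genes were longer at the median than genes in general, but not longer than genes weighted by their length. The longest genes held few regions for their length. The 170 protein-coding hosts had a median length of 90.7 kb (4.85 to 2390 kb), against 17.3 kb for all 21631 protein-coding genes. Weighted by length, so that each base counts once per gene, the median gene was 139 kb, above the median of the hosts. Of all regions with a protein-coding host, 30 lay in genes over 300 kb, which make up 30.4% of summed gene length and held 16.7% of these 180 regions. That is 9.40 regions per 100 Mb of gene (exact Poisson 95% interval 6.35 to 13.4). Genes of 50 to 100 kb held 43 regions, or 24.3 per 100 Mb (17.6 to 32.7), and genes of 10 to 50 kb held 20.7 (15.1 to 27.7). For regions in both lists the values were 4.39 per 100 Mb over 300 kb and 12.4 at 50 to 100 kb. Of the genes over 300 kb, 26 of 557 (4.67%) held a region, against 0.786% of all protein-coding genes.

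**Figure D4:**
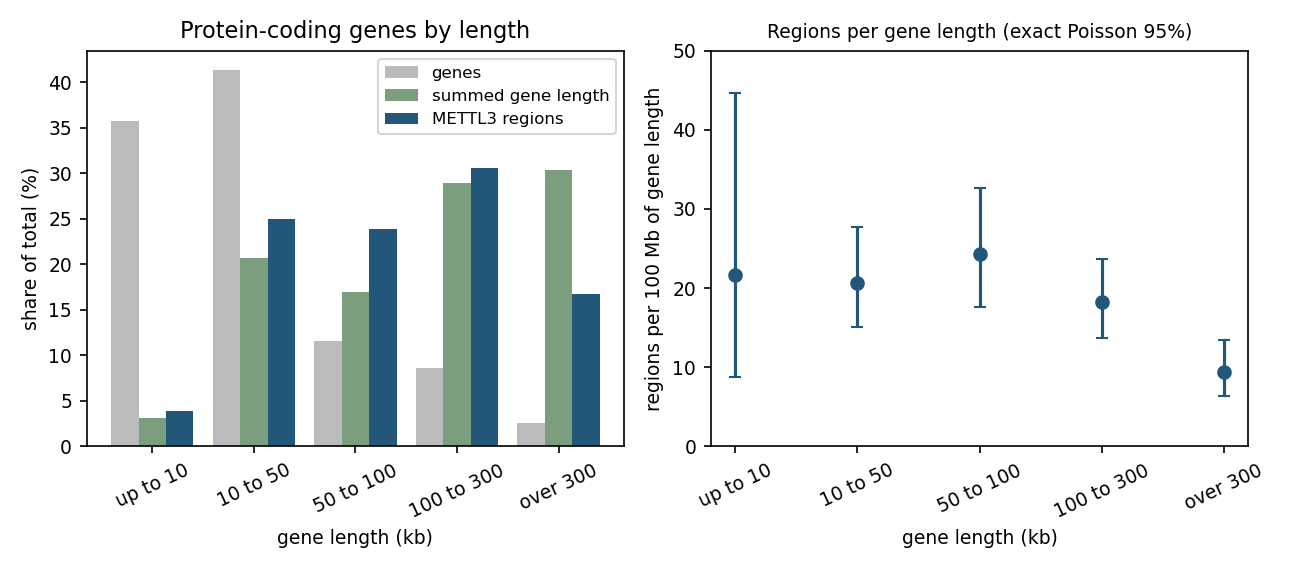
Left, share (y axis, %) of protein-coding genes, of their summed length and of METTL3 regions in 5 classes of gene length (x axis, kb); right, regions per 100 Mb of summed gene length in the same classes, with exact Poisson 95% intervals. Genes over 300 kb stand lowest on the right, at 9.40, against 18.2 to 24.3 in the other classes.

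The longest hosts of regions in both lists were Dmd, the dystrophin gene (2390 kb), Tenm3 (1297 kb), Asic2 (1088 kb), the glypican gene Gpc6 (1055 kb) and Iqschfp (734 kb). Dmd had the only genic region on chromosome X, with 6.29 and 9.18 and no input tag in either library, at 93.7% of the gene length. Chromosome X carries 4.25% of summed gene length and had 0.459% of genic regions. The IP tags expected from the 10 kb around the Dmd region were 0.992 and 1.03. Genic regions outside chromosome 8 had medians of 2.12 and 2.00. Whether this lower local density bears on the empty inputs was not tested. Counting each empty input as 3 tags, Dmd stood 5.20-fold and 4.55-fold higher in IP. From the observed counts, with no input tag, the exact 95% intervals start at 3.70 and 3.37. Gpc6 had 8.09 and 8.26. The shortest protein-coding hosts of regions in both lists were Ifitm2 (4.85 kb), Tefm (6.20 kb), LOC115486128 (10.5 kb), Setmar (12.1 kb) and Mettl3 (13.9 kb). Tefm, a mitochondrial transcription elongation factor gene, had 6.74 and 7.80. Setmar, a gene for a protein with a histone methyltransferase domain, had 7.64 and 9.18. Long and short hosts thus overlapped in height.

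By gene type, 164 regions lay in protein-coding genes alone, 37 in lncRNA genes alone, 16 in both and 1 in a transfer RNA gene. The share in both lists was 77 of 164 (47.0%, exact 95% interval 39.1 to 54.9%) for protein-coding hosts and 11 of 37 (29.7%, 15.9 to 47.0%) for lncRNA hosts, beside 44.9% of all regions. The 53 lncRNA hosts were 0.417% of lncRNA genes and had a median length of 26.6 kb, against 8.40 kb for all lncRNA genes. Weighted by length, the median lncRNA gene was 37.9 kb. In all there were 224 host genes, since 21 regions lay in 2 overlapping genes. One of these was in Magi1, a scaffold protein gene, and 4930511A08Rik, with 9.89 and 8.72.

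Some genes held several regions. These numbered 12, of which Mettl14 and Thada had more than 1 region in both lists. Mettl14, a gene of 17.7 kb, held 3, measuring 13.5 and 12.4, then 6.29 and 6.88, then 9.89 and 15.6 in coordinate order. Input at them was 0, 0 and 0.403 in replicate 1 and 2.02, 0.673 and 1.35 in replicate 2. They were spread over 8.86 kb, with a smallest gap of 1.05 kb. The pair in Thada lay 3.55 kb apart at 40.2% and 41.5% of a 276 kb gene. Mettl3 and Esrrb each had 1 region in both lists and a lower one nearby in 1 list, 2.20 kb and 2.50 kb away. In Mettl3 the first measured 13.5 and 11.5, at 79.9% of the gene length, and the second 6.42 in replicate 2 with no input tag. The second Esrrb region measured 7.19 in replicate 1.

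The other genes with several regions had at most 1 in both lists. Tenm3 had 3, of which 1 was in both lists, spread over 596 kb. Cdh13, the T-cadherin gene, had 3 of 5.84 to 6.42, none of them in both lists, with at least 179.6 kb between them. Camk1d, a calcium and calmodulin dependent kinase gene, had one of 9.44 and 7.34 and another of 5.96 in replicate 2 alone. Dlgap3, a postsynaptic scaffold gene, had one of 10.3 and 10.6 and another of 5.84 in replicate 1 alone. Btbd11 had 2 in replicate 1 alone (7.19 and 9.44), and the overlapping genes C130026I21Rik and Gm38510 shared 2, of 6.29 in replicate 1 and 12.8 in replicate 2.

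**Figure D5:**
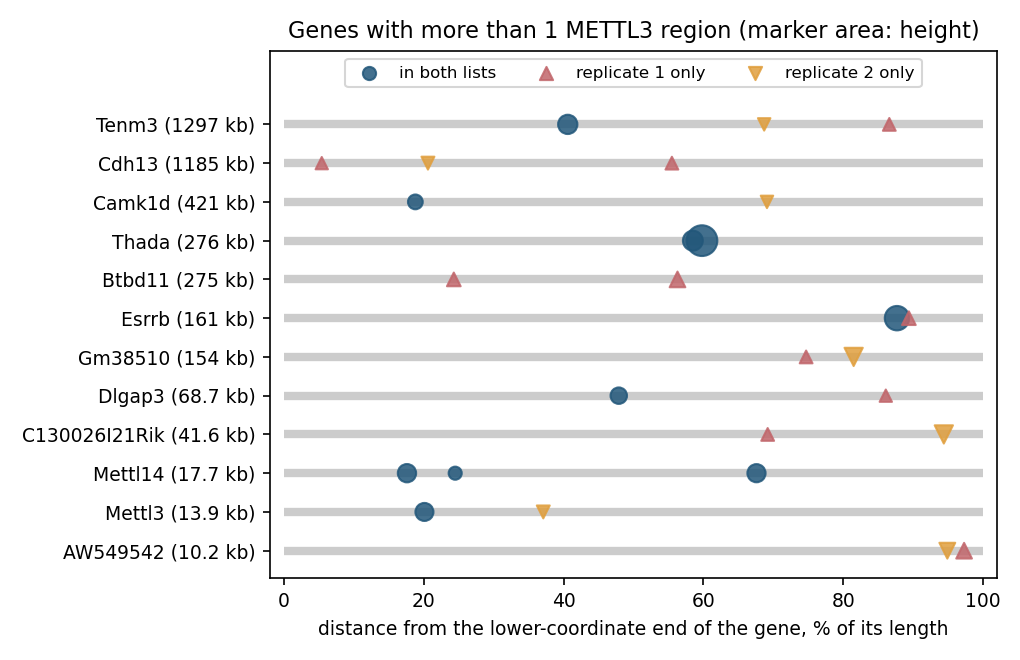
Position of each METTL3 region along the 12 genes that hold more than 1, as distance from the lower-coordinate end in % of gene length (x axis); each grey bar is a gene with its length in kb, marker shape and colour show the list, and marker area grows with mean height. Regions of Thada, Esrrb and AW549542 lie within a few % of gene length, while those of Mettl14 run from 17.6 to 67.6% and those of Tenm3 from 40.6 to 86.6%.

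Listed gene groups had hosts as follows, beside 0.786% of all protein-coding genes with a region in either list and 0.374% with one in both. The lists were chosen with earlier results of these data known, so their counts are no independent evidence. Of 24 pluripotency genes, 4 were hosts and 2 of them, Tet2 and Esrrb, had a region in both lists. The others were in replicate 2 alone, in Nanog (7.34 normalised tags, at 58.4% of the gene length) and in Tbx3, a T-box factor gene (6.42, with no input tag). Of 24 writers, erasers and readers of m6A, Mettl3 and Mettl14 were hosts, both with regions in both lists, and none of the other 22 was. Of 12 DNA methylation genes, 3 were hosts. Beside Tet2 these were Mbd2, a methyl-CpG binding protein gene (8.09 and 6.88, against input of 0.403 and 0.673), and Dnmt3a, a de novo methyltransferase gene with 12 IP tags in replicate 1 alone, at 89.6% of its length.

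Signalling and lineage lists held 3 hosts, of which 1 had a region in both lists. Of 33 genes of LIF, BMP, FGF and Wnt signalling, Lgr4, an R-spondin receptor gene, had a region of 7.64 and 8.72 at 26.7% of its length, and Tcf7l1, a Wnt-pathway transcription factor gene, had one of 6.29 in replicate 1 alone. Of 26 lineage regulators, 1 was a host, Foxp1, with 7.80 in replicate 2 alone. None of 35 chromatin regulators, 15 fibroblast feeder markers or 17 genes of the 2-cell-like state was a host. Chromatin genes outside that list were, and these were chosen after their values were seen. Setd1b, a histone H3 lysine 4 methyltransferase gene, had 11.7 and 13.3, and Brd1, a bromodomain gene, had 10.8 and 12.8 against input of 3.22 and 2.02.

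Of 54 large cytoskeleton, adhesion and neuronal genes, 12 were hosts and 8 had a region in both lists. That list took in genes already known to hold peaks, such as Fryl, Thada, Wdr7 and Zfp462, so nothing is read from its count. Its median length was 1012 kb. Zfp462, a zinc finger gene, had 9.44 and 9.64 with no input tag, and Ank3, the ankyrin G gene, had 11.2 and 5.96, the widest relative gap between replicates in this group. Beside Cdh13 and Cntnap2, Csmd1 had a region of 8.99 in replicate 1 alone and Dpp6, an auxiliary potassium channel subunit gene, one of 6.42 in replicate 2 alone.

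Regions of 1 list alone reached 15.3 in replicate 1 and 12.8 in replicate 2. In replicate 1 they were in Gm32673 (15.3 against input of 2.42), Sgce, the epsilon-sarcoglycan gene (12.6 against 1.21), Gm14486 (10.3), Gpr107 (9.89) and Cdc42ep3, a gene for a CDC42 effector (9.89). In replicate 2 they were in C130026I21Rik with Gm38510 (12.8 against 2.69), Ddc, the aromatic amino acid decarboxylase gene, with 1700042O10Rik (10.1), Gm31993 (10.1, no input tag), Gm42346 (10.1) and Gm32425 (9.64). Over all regions of 1 list the medians were 6.29 in replicate 1 and 6.88 in replicate 2, both under the medians of the regions in both lists.

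Chromosome 8 had the most genic regions, and few of them recurred. It held 26, of which 3 were in both lists (11.5%, exact 95% interval 2.45 to 30.2%), in Fat1, Tenm3 and D230025D16Rik (9.44 and 13.8, named here because the count is small). On the other chromosomes together, 90 of 192 were in both lists (46.9%, 39.7 to 54.2%). Chromosome 8 carries 4.92% of summed gene length and had 11.9% of genic regions. It also had the most regions between genes, 25 of 216, so its high number was not particular to regions inside genes. Between its genes, 8 of 25 regions recurred (32.0%). The IP tags expected from the surrounding 10 kb had medians of 2.81 and 2.75 on chromosome 8 against 2.12 and 2.00 for genic regions elsewhere. On chromosome 6 these medians were 2.99 and 2.62, and 7 of 18 genic regions recurred (38.9%). The part of this density in the result was not tested. Chromosome 3 is named because its share was the highest among chromosomes with more than 1 genic region. There, 10 of 11 genic regions were in both lists (90.9%, exact 95% interval 58.7 to 99.8%), 3 of them in Mettl14. Between genes on chromosome 3, 5 of 9 regions recurred (55.6%).

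Start windows of host genes were then set beside those of all protein-coding genes, for base composition and short motifs. Windows were in the table for 128 of the 170 protein-coding hosts and numbered 188. Their median GC content was 58.0% and they held a median of 16 CpG, against 56.7% and 13 over 21045 windows of all protein-coding genes. For the 103 windows of hosts of regions in both lists, the medians were 56.7% and 14. GGACT, the core letters of the m6A consensus, was in 47.9% of host windows and 46.6% of all, on either strand. The estrogen-related receptor motif TNAAGGTCA was in 4 host windows (2.13%, exact 95% interval 0.583 to 5.36%) and in 1.04% of all. CACGTG, the E-box, was in 8 (4.26%, 1.85 to 8.21%) and in 7.91% of all. GGGTGTGGC, a KLF motif, was in 1.60% and 1.52%, TGACTCA (AP-1) in 3.72% and 4.69%, and the octamer TATGCAAAT in 0.532% and 0.646%. The joint OCT4-SOX2 motif was in 1 host window (0.532%, exact 95% interval 0.0135 to 2.93%) and 0.0713% of all. It was in 0 of the 103 windows of hosts of regions in both lists. The letters of the joint motif share a stretch with the octamer on the other strand, so the counts of both can overlap. A match is a description of letters, not a bound site. The windows printed above held none of these letters, except for GGACT once at Cntnap2. That match was on the strand opposite to the printed one and outside the METTL3 region. Windows of the same gene can overlap, and most regions lie far from them, with a median of 18.8 kb to the nearest listed start.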

How the data were processed

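Peaks were called by the authors with HOMER findPeaks in factor style, separately in each IP library against the input of the same number, per the file headers. The headers give a false discovery rate of 0.001 (a threshold of 14 tags) and a required Poisson p-value of 0.0001 over input and over the local 10000 bp. Listed peaks held 12 tags or more. Tools named without roles in the submitters' processing notes were Bowtie 1.2.2, Trimmomatic 0.38, CASAVA and HOMER, with the build mm10. How the reads were aligned is not given in those notes. The height deposited by the authors is a signal, namely tags in the peak per 10000000. Their deposited tag total is a count for the first replicate and, for the second, a signal scaled to input. The fraction of tags on the side of the peak centre that their strand predicts, the score, the fold or ratio over input and the p-values are also the authors' deposited values. The lists held 353 and 281 peaks, of which 3 and 2 on other sequences were not used.

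Scaled columns were turned back into whole tags, which came out within 0.0733 tags of a whole number for IP in replicate 2 and within 0.0435 for input in replicate 1. In replicate 1, the total differed from the tags behind the height in 25 peaks, by at most 2. Recovered folds use library totals, with exact conditional binomial intervals. Shares have Clopper-Pearson intervals. Where input had no tag, 3 tags stand in its place for the printed fold, while the interval uses the observed count.

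Hosts are RefSeq genes (GRCm38.p6, the assembly of mm10), 1-based. Strand and start windows came from the RefSeq table of start windows, and windows on chromosome 18 were left out of the composition counts. The merging step was tested on simulated peaks. Python 3.11.15, pandas 2.3.3 and SciPy 1.17.1 were used. No test per region was made, since regions were listed because IP exceeded input, and results are counts, shares and ratios. The members and gene lists were chosen with earlier results of these data known. Named genes were the hosts of the 25 tallest regions in both lists by the lower height, hosts in a gene list, hosts of regions within 1 kb of a gene end (at most 10 in both lists and 5 in one), hosts of several regions, the 5 longest and 5 shortest protein-coding hosts of regions in both lists, the 5 tallest of each single list, and hosts whose start window was overlapped.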

Additional observations from a re-analysis of the deposited data

How the results depend on the processing

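Of genic regions with 12 to 15 IP tags, 30.2% in replicate 1 and 31.1% in replicate 2 recurred in the other list, and depth itself was not varied. Replicate 2 rested on an input of about 14900000 tags, with no input tag in 30 of its 140 genic regions (21.4%). No paired analysis was possible because the results are counts, shares and ratios with no test to hold a block. Ratios of IP to input were taken within each replicate. Of 44 alternative values, 31 stayed within the spread allowed for them. The number of genic regions was 140 and 171 in the lists of 1 replicate each, and the genic share 48.9 to 50.2%, the host length 81.5 to 83.2 kb and the position 49.5 to 54.6%. With protein-coding genes only the genic share was 41.5% and the median host length 92.7 kb. Without predicted gene models they were 40.8% and 91.6 kb. The shortest host in place of the longest gave 62.7 kb. Regions in both lists alone had a median position of 55.7%. A fold of at least 8 gave a shared part of 30.4% and a median height of 10.9. Without chromosome 8, an alternative chosen after seeing the data, the median height was 9.32, against 9.53 with it. The cause was not tested, except where fewer genes or peaks were used by construction.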
